A study of Mus musculus with 16 samples.

Results

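A group of 10 genes that encode proteins of the sperm surface and the chaperones that fold them were followed in the mouse testis. The set was fixed by name as Adam1a, Adam1b, Adam2, Adam3, Adam5, Adam18, Adam32, Clgn, Calr3 and Tex101, and the members were found by the Ensembl gene identifiers of the deposited tables, with version numbers removed. All 10 were present, among 55414 gene identifiers. The study sequenced RNA from 16 testis libraries to compare Ythdc2 conditional knockout (cKO) mice with control mice at postnatal days 14 (P14) and 16 (P16). Ythdc2 encodes an RNA helicase with a YTH domain. Mice of every group had received tamoxifen (10 mg/ml) on P12 and P13, so the drug was common to control, Cre control and cKO groups. There were 2 control, 2 Cre control and 3 cKO libraries at P14, and 2 control, 4 Cre control and 3 cKO libraries at P16. The column headers abbreviate control to WT and Cre control to Ctrl, and the alleles of each control type and the promoter that drives Cre were not given in the sources used here, and neither was whether replicates came from separate animals, so p-values measure only the spread between these libraries.

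Members of the ADAM family (a disintegrin and metalloprotease) are made in male germ cells as precursors and carried to the sperm surface, where several take part in passage through the oviduct and in binding to the egg coat. ADAM1B pairs with ADAM2 to form fertilin of the sperm surface, while ADAM1A pairs with ADAM2 inside the endoplasmic reticulum. ADAM3 reaches the surface only when a chain of helpers is intact, among them the testis chaperones calmegin (Clgn, a relative of calnexin) and calsperin (Calr3, a relative of calreticulin) and the membrane-anchored germ cell glycoprotein TEX101.

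Adam18, Adam3, Adam5 and Adam32 were consecutive coding genes on the minus strand of chromosome 8 in the GENCODE M21 annotation. Clgn and Calr3 also lie on chromosome 8, Adam1b and Adam1a are neighbours on chromosome 5, Adam2 is on chromosome 14 and Tex101 is on chromosome 7. The RefSeq promoter table (build GRCm38.p6) held 4 of the 10 members, Adam1a, Adam1b, Calr3 and Tex101, with 2 entries for Calr3. The authors' build was GRCm39, so these positions are not those of the deposited counting. The 250 bases before the start are shown for Tex101 and Adam1b, which fell in the P16 cKO, and for Adam1a and Calr3, which did not pass the test of stage. Each sequence runs 5′ to 3′ along its gene's minus strand, and capitals mark the motif CCAAT on either strand (ATTGG when read on the other).
Tex101, chr7:24672051-24672300: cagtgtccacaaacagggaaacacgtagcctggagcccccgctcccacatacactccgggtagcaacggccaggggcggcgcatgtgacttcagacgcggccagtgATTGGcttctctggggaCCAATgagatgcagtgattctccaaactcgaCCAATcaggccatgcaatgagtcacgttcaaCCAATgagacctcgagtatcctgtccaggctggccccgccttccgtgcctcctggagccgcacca
Adam1b, chr5:121503436-121503685: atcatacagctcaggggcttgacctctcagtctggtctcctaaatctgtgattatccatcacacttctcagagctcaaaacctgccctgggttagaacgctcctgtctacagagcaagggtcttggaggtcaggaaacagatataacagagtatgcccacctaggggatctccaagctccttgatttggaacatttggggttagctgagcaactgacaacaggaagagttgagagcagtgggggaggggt
Adam1a, chr5:121521696-121521945: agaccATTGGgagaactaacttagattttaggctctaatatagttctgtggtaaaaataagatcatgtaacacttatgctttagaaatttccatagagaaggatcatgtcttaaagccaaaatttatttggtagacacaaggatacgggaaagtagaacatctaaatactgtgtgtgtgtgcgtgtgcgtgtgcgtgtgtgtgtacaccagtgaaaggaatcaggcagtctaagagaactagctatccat
Calr3, first entry, chr8:72443779-72444028: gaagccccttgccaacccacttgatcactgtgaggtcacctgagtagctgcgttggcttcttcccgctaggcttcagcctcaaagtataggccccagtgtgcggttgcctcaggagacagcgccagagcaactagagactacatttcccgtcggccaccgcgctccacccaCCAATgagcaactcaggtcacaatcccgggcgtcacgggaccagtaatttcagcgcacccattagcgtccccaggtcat
The Tex101 window held 4 CCAAT motifs, a number that 0.840% of 32851 windows of the same length reached or passed. The Adam1b window held 0, and the Adam1a window and both Calr3 windows held 1 each, where 33.8% of all windows held at least 1. None of TATAAA (12.4% of windows), the cAMP response element TGACGTCA (1.55%) or the MYB motif AACNGTT (3.80%) was found in the 5 windows on either strand. A match or its absence describes the letters only.

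Ribosomal RNA was removed with Ribo-Zero ("the first kit") for control and for cKO 1 and 2, 8 libraries with 22220565 to 27531529 gene reads. The NEBNext depletion kit ("the second kit") served for Cre control and cKO 3, 8 libraries with 14494867 to 23200252. The Cre control tables therefore set cKO libraries of both kits against controls of the second kit only. No sequencing run held libraries of both kits, so a difference between kits cannot be told apart from one between runs. Where the kits are set against each other below, kit stands for kit and run together. Ythdc2 was lower in every cKO library than in any control library of its table: it stood at 19.8% of control at P16 and at 32.9% at P14, and at 19.7% and 34.9% of Cre control. From P14 to P16 it was not called in control (0.19, SE 0.08) or Cre control (0.23, SE 0.20). The tissue label was checked with markers: 10 markers of pachytene spermatocytes summed to 505.5 to 2406 CPM (reads scaled to a common library size), while the 6 epididymis markers summed to at most 0.598 CPM. All 7 spermatid markers together summed to 3.09 to 9.28 CPM, with the late markers Tnp2, Prm1 and Prm2 at or near 0.

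In control testis 8 of the 10 members rose from P14 to P16, and the same 8 rose in Cre control testis. The members of the surface ADAM group rose most, Clgn rose less and Tex101 least, while Adam1a and Calr3 did not pass the test. The levels for this comparison are CPM from recovered reads, scaled within a kit, and changes are log2 CPM tested with limma with Benjamini-Hochberg adjustment over all genes. Each fit held all 8 libraries of its kit, cKO libraries included. In the first kit the SE and p-values therefore also rest on the spread between cKO libraries. In the second kit each cKO group was 1 library and added no spread. In control testis 20.0% of the genes tested were called, 13.3% higher and 6.67% lower at P16, and in Cre control testis 11.8%, 8.97% higher and 2.82% lower.

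Adam3, the surface protein that depends on the chaperones, stood at 1.34 and 1.70 CPM in the control P14 libraries and at 28.5 and 22.8 CPM in the control P16 libraries. The 2 stages were far apart, with a log2 change of 4.04 (SE 0.36; adjusted p = 0.000222 by limma). In Cre controls Adam3 was at 0.251 and 0.679 CPM at P14 and at 31.8, 14.2, 24.3 and 4.63 CPM at P16. The fourth Cre control P16 library was thus the lowest of its group, yet above both P14 libraries, and the log2 change was 4.99 (SE 0.65; adjusted p = 0.00113 by limma).

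Adam18, the next gene on the chromosome, had few reads at P14. There were 10 and 13 reads in the control P14 libraries against 163 and 164 at P16, a log2 change of 3.51 (SE 0.56; adjusted p = 0.00206 by limma). In Cre controls it had 3 and 1 reads at P14 and 163, 119, 191 and 40 at P16. Its fitted log2 change there was 5.02 (SE 0.58; adjusted p = 0.000816 by limma), a value that rests on those few P14 reads.

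Adam5 and Adam32, the other ADAM genes of the cluster, rose by similar amounts. Adam5 went from 16.7 ± 0.583 to 102 ± 0.278 CPM in control (mean ± SD, n = 2 each), a log2 change of 2.61 (SE 0.27; adjusted p = 0.000291 by limma). Adam32 went from 6.57 ± 0.670 to 41.3 ± 1.27 CPM, a log2 change of 2.65 (SE 0.29; adjusted p = 0.000343 by limma). In Cre controls the changes of Adam5 and Adam32 were 3.62 (SE 0.41) and 3.52 (SE 0.42), so all 4 genes of the cluster rose in both control types.

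The fertilin genes divided. Adam2, the shared subunit, stood at 27.5 and 31.3 CPM in control P14 and at 116 and 110 CPM in control P16, a log2 change of 1.94 (SE 0.18; adjusted p = 0.000230 by limma). Adam1b, the subunit of surface fertilin, stood at 1.48 and 1.84 CPM and then at 11.04 and 10.82 CPM, a log2 change of 2.70 (SE 0.38; adjusted p = 0.00111 by limma). Adam1a, its neighbour, was low throughout, at 0.896 and 0.628 CPM in control P14 and 0.680 and 1.02 CPM in control P16. The 2 stages overlapped for Adam1a, and its change was 0.14 (SE 0.37; adjusted p = 0.824 by limma). In Cre controls Adam1a changed by -0.75 (SE 0.50; adjusted p = 0.370 by limma) while Adam1b rose by 3.07 (SE 0.52). Adam1a shares exon sequence with the gene models Gm42878, Mapkapk5 and Tmem116 in GENCODE M21. Reads there may be left uncounted, so the level of Adam1a is uncertain.

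The chaperones divided as well. Clgn stood at 117 and 124 CPM in control P14 and at 239 and 262 CPM in control P16, a log2 change of 1.05 (SE 0.14; adjusted p = 0.000874 by limma). In Cre controls Clgn changed by 1.62 (SE 0.18). Calr3 was at 3.72 and 4.75 CPM at P14 and at 4.28 and 3.68 CPM at P16 in control, overlapping fully, with a change of -0.08 (SE 0.17; adjusted p = 0.778 by limma). Calr3 changed by 0.01 (SE 0.24) in Cre controls.

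Tex101, the membrane-anchored glycoprotein, rose least of the members called. It stood at 359 and 344 CPM in control P14 and at 470 and 463 CPM in control P16, a log2 change of 0.41 (SE 0.08; adjusted p = 0.00775 by limma). Tex101 was called under 13 of the 17 settings tried in control. Its call was lost without control P14 library 2 (limma adjusted p = 0.0518), control P16 library 1 (0.0655) or control P16 library 2 (0.0519). In Cre controls Adam1b was called under 15 of the 18 settings tried and Tex101 under 14. Tex101 rose by 0.82 there (SE 0.18; adjusted p = 0.0170 by limma). That call was lost without Cre control P14 library 1 (limma adjusted p = 0.209) or Cre control P16 library 3 (0.0740), and without Cre control P14 library 1 the Adam1b call was lost too (0.0502).

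Sequencing run partly followed stage in the second kit. Within the run that held both stages, Cre control P16 library 1 exceeded the P14 mean 68.4-fold for Adam3, 18.0-fold for Adam5, 8.13-fold for Adam2, 3.95-fold for Clgn and 2.31-fold for Tex101. The excess was 74.4-fold for Adam18, 17.1-fold for Adam32 and 10.5-fold for Adam1b. Calr3 stood at 1.16 times its P14 mean and Adam1a at 0.237 times. The rise in the members called was therefore also seen within a run, but in 1 P16 library. That library was the highest of the 4 Cre control P16 libraries for each of them. With no filter on low reads, 0 members were called in Cre controls and 49 genes in all.

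**Figure D1:**
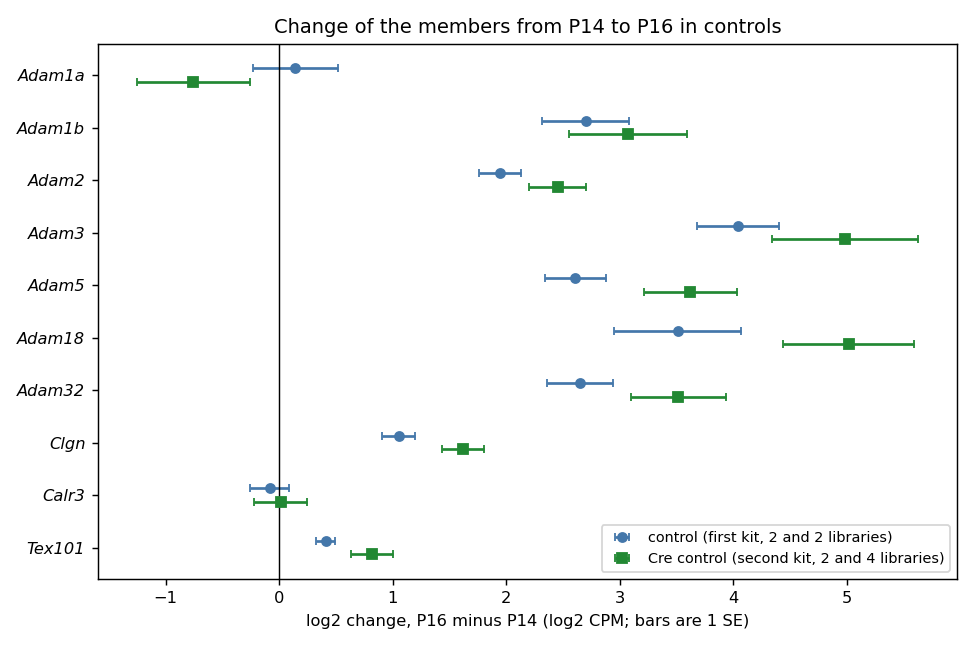
Log2 change from P14 to P16 for each member in control (circles, first kit, 2 and 2 libraries) and Cre control testis (squares, second kit, 2 and 4 libraries), in log2 CPM. Bars are 1 SE from the fit of all libraries of the kit, cKO libraries included. Adam3 and Adam18 lie farthest to the right in both control types, and Adam1a and Calr3 lie near or below 0.

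Levels per kilobase of exon, in CPM per kb with GENCODE M21 lengths, gave the order of abundance at P16. In control P16 the means were 282 for Tex101, 62.2 for Clgn, 41.9 for Adam2, 32.6 for Adam5, 13.8 for Adam32, 8.72 for Adam3, 3.27 for Adam1b, 2.65 for Adam18, 2.03 for Calr3 and 0.113 for Adam1a. No neighbours in that order overlapped between the 2 control P16 libraries. In Cre control P16 the order was the same except that Adam18 (2.77) stood above Adam1b (2.35), and every pair of neighbours overlapped there except Tex101 with Clgn and Calr3 with Adam1a. The length used for Adam1a includes read-through models, so its level per kb is a low estimate.

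The pachytene spermatocyte markers rose over the same days. All 10 were called higher in control and 9 of 10 in Cre control, with a median log2 change of 1.78 and 2.52, where the members' medians were 2.28 and 2.76. Over all genes tested the median was -0.01 in both. Of the 8 tested helpers of ADAM3 outside the set, Cmtm2a, Cmtm2b, Ly6k and Lypd4 rose and Ace fell in each control type. Of 8 general chaperones of the endoplasmic reticulum, 1 (Canx, calnexin) rose in control and 0 in Cre control. Fewer cells of a type and less RNA per cell cannot be told apart in whole testis, here or in the comparisons that follow.

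At P16 the cKO testis held more RNA of 6 members and less of 2 than control testis, within the first kit. Adam5, Adam2, Adam32, Adam18, Clgn and Adam3 were higher, by 1.27-fold to 1.83-fold in the ratio of means. Adam1b and Tex101 were lower, at 70.7% and 75.4% of control. Calr3 and Adam1a did not pass the test. Of all 17986 genes tested, 38.6% were called, 18.6% higher and 19.9% lower, so calls were common in this comparison and 8 of 10 members called has to be read against that share. The levels below are the deposited normalized counts, and changes are on the log2(value + 1) scale.

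Adam5 changed most. It stood at 2644 and 2649 in control and at 4690.0 and 4978 in cKO, far apart, with a log2 change of 0.87 (SE 0.05; adjusted p = 5.5e-08 by limma). Its neighbour Adam32 stood at 1049.5 and 1095 in control and at 1564 and 1506 in cKO, a change of 0.52 (SE 0.06; adjusted p = 2.13e-05 by limma). Adam18 stood at 169 and 155 in control and at 239 and 216 in cKO, a change of 0.49 (SE 0.12; adjusted p = 0.00604 by limma). None of these 3 overlapped between the groups.

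Adam3 differed least in this cluster. It stood at 741 and 592 in control and at 883 and 815 in cKO, with a log2 change of 0.36 (SE 0.09; adjusted p = 0.00919 by limma). The groups did not overlap, but the call rested on the second control library. Without it, the lone control being assumed to vary like the cKO libraries, the change was 0.20 (limma adjusted p = 0.136), and with no filter on low values the adjusted p was 0.0569. Reads from Gm45528, which overlaps an Adam3 exon on the other strand, cannot be told apart from Adam3 reads unless strand was used in counting, which is not given in the sources used here.

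The subunits of surface fertilin moved in opposite directions. Adam2 stood at 3003 and 2857 in control and at 4076 and 4506 in cKO, a log2 change of 0.55 (SE 0.05; adjusted p = 9.46e-06 by limma). Adam1b stood at 287 and 281 in control and at 212 and 189.5 in cKO, a change of -0.50 (SE 0.11; adjusted p = 0.00265 by limma). Both groups were apart for each gene, in opposite order. Adam1a stood at 17.7 and 26.5 in control and at 34.9 and 20.7 in cKO, which overlapped (0.30, SE 0.33; adjusted p = 0.509 by limma).

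The chaperones also differed from each other. Clgn stood at 6209 and 6786 in control and at 8237 and 9275 in cKO, a log2 change of 0.43 (SE 0.06; adjusted p = 0.000105 by limma). Calr3 stood at 111 and 95.5 in control and at 85.4 and 74.6 in cKO. The Calr3 groups did not overlap, yet the change of -0.36 (SE 0.17) did not pass the test (limma adjusted p = 0.105).

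Tex101 stood at 12219 and 12022 in control and at 8499.9 and 9773 in cKO, a log2 change of -0.41 (SE 0.06; adjusted p = 0.000108 by limma). Both cKO libraries were below both controls. The partner of TEX101, Ly6k, also fell, from 3584 ± 123 to 3003 ± 116 (mean ± SD, n = 2 each), a change of -0.26 (SE 0.05; adjusted p = 0.00120 by limma). Over the set, 6 members had both cKO libraries above both controls, 3 had both below and 1 overlapped, where 34.2% and 35.4% of all genes were above and below.

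Without the intensity trend in limma's variance estimate, 3 members were called higher (Adam2, Adam5 and Adam32) and 1 lower (Adam1b). Of all 17986 genes tested there, 741 were called higher and 1065 lower. With libraries of both kits and kit as a covariate, 0 members were called higher and 1, Tex101, lower. Of all 19932 genes tested there, 1209 were called higher and 1492 lower.

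Other genes of the pathway showed no single direction at P16. Of the 12 ADAM3 helpers outside the set, 8 could be tested: Lypd4 (0.43), Cmtm2b (0.34) and Cmtm2a (0.36) rose, Ly6k fell and 4 were not called. The list's median log2 change was 0.05, and that of the members 0.39, beside -0.000495 for all genes. CMTM2A, CMTM2B and LYPD4 are needed for ADAM3 to reach the sperm surface. Of 8 general chaperones, Hspa5 (-0.35), Prkcsh (-0.20) and Calr (-0.18) fell and Ganab (0.15) rose. HSPA5, PRKCSH and GANAB help glycoproteins fold or trim their sugars, and Calr is the broad relative of Calr3.

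Of 11 tested ADAM genes that many tissues express, 3 rose and 3 fell, with Adam22 (-0.82), Adam11 (-0.81) and Adam15 (-0.51) lower and Adam12 (0.52) among the higher. Only 1 of 13 further testis ADAM genes passed the filter on low values, Adam30, and it rose by 0.65 (SE 0.12; adjusted p = 0.000980 by limma). Of the sperm-egg fusion genes, 6 of 7 were found in the tables and 2 were tested: Spaca6 rose by 0.75 (SE 0.14; adjusted p = 0.00107 by limma), and Izumo1 was not called (-0.90, SE 0.40; adjusted p = 0.0934 by limma).

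Markers of germ cells and of their stages moved in the same comparison. Of 3 general germ cell markers, Tex14 (-0.36) and Dazl (-0.17) fell and 1 was not called. All 7 markers of early meiotic prophase fell, Prdm9 most (-1.63), and 4 of 5 spermatogonial markers fell. Of 10 pachytene markers 4 rose, Pgk2 most (0.86), 1 fell, Ccna1 (-0.84), and 5 were not called. Summed pachytene markers ranged from 1701 to 1726 CPM in control and from 1783 to 1999.9 CPM in cKO, with 0 defining markers at 0. Of 2 tested spermatid markers, Spaca1 rose (0.52) and Tssk6 was not called. All 3 macrophage markers rose, from a summed 31.4 to 32.6 CPM up to 44.9 to 45.4 CPM, and 3 of 6 Sertoli markers rose. Of 4 tested Leydig cell markers, Hsd3b1 rose (0.29) and 3 were not called. The part of these shifts in the members' changes was not tested.

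**Figure D2:**
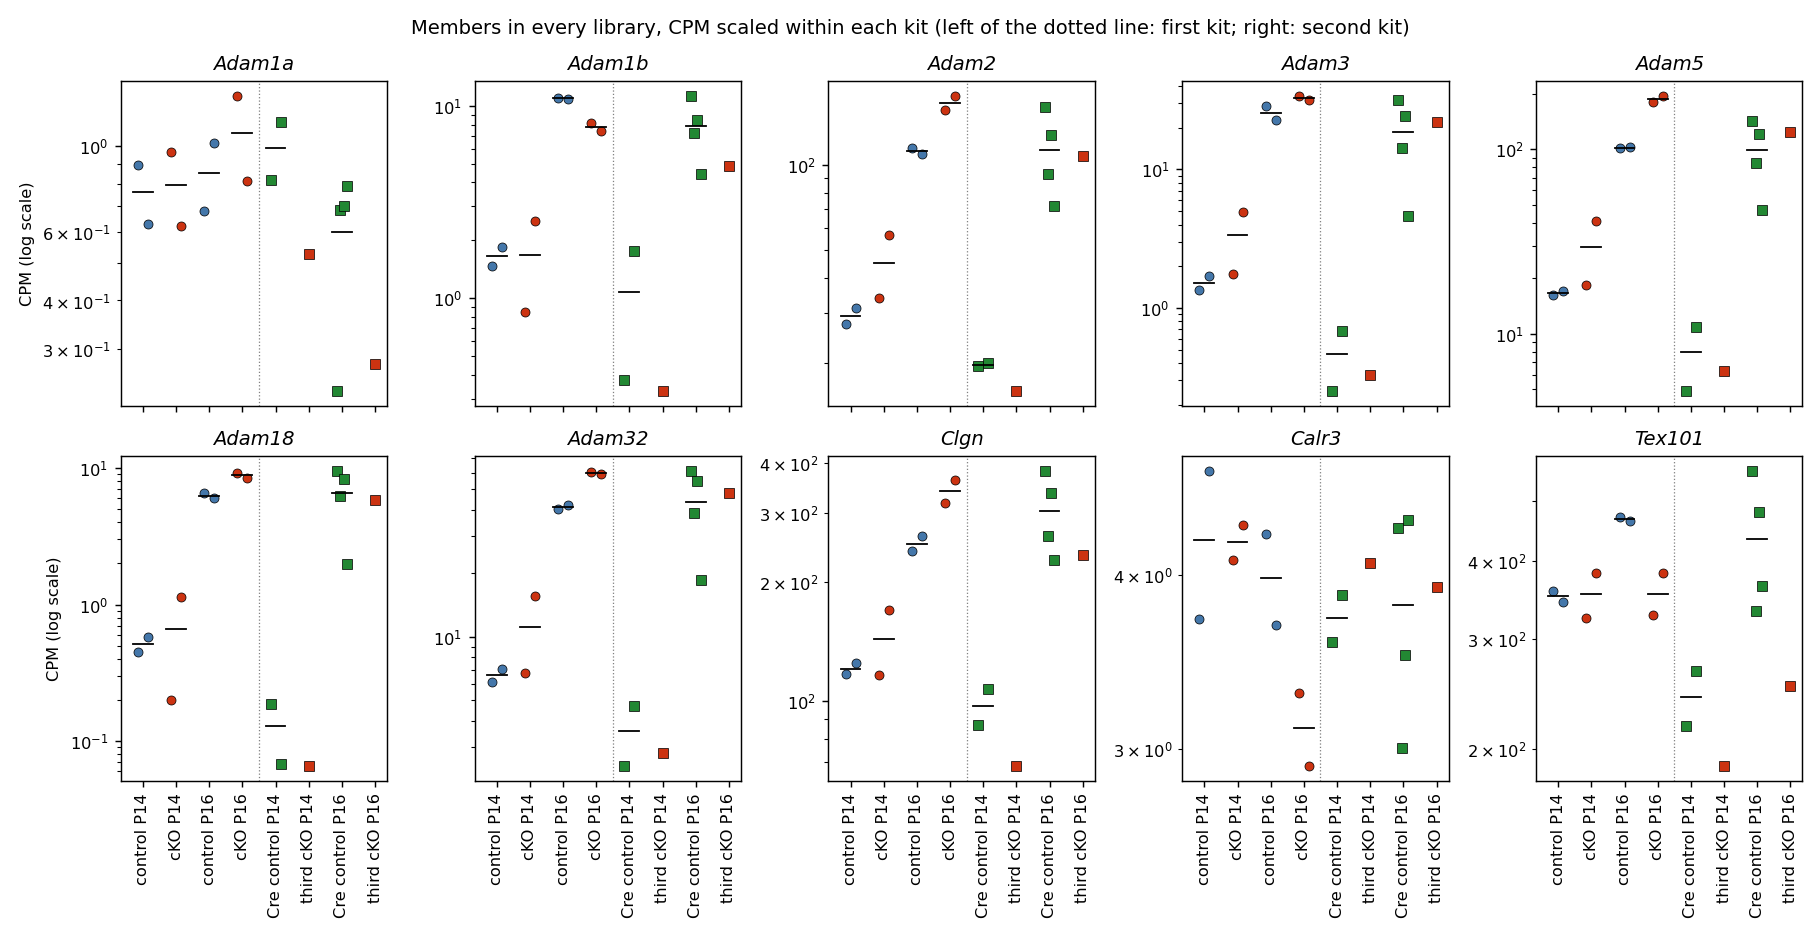
CPM of each member in every library on log axes, with control in blue, Cre control in green and cKO in red. Circles are first-kit and squares second-kit libraries, and lines are group means. At P16 the first-kit cKO libraries of Adam5 lie at 181 and 195 CPM above controls at 102 CPM, while those of Tex101 lie at 328 and 382 CPM below controls at 463 and 470 CPM.

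At P14, 1 day after the last tamoxifen dose, 0 of 10 members were called between cKO and control in limma, where 0.00579% of genes were called and only Ythdc2 passed. The Ythdc2 call was itself lost without control P14 library 1 (limma adjusted p = 0.0674) or library 2 (0.261). At an unadjusted p under 0.05, 410 genes passed. Adam2, Adam3 and Adam5 had both cKO libraries above both controls, and the other 7 overlapped, where 15.1% of genes were above and 14.5% below. The cKO libraries differed from each other: Adam5 stood at 391 and 413 in control and at 445 and 987 in cKO. Adam3 stood at 32.3 and 41.2 in control and at 42.7 and 119 in cKO, and Adam2 at 659.9 and 755 in control and at 819.5 and 1366 in cKO. The second cKO library was thus the high one for each of them, and its summed pachytene markers were also the highest of the P14 libraries, at 1092 CPM against 751 CPM in the first.

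Adam18 and Adam1b showed the same split between the cKO libraries. Adam18 had 5 and 31 reads in cKO and 10 and 13 in control, and Adam1b stood at 20.4 and 60.9 in cKO and 35.5 and 44.4 in control. Without the first cKO library Adam2 (0.95, limma adjusted p = 0.0480) and Adam5 (1.30, limma adjusted p = 0.0279) were called higher. Limma then takes the spread from the controls, and the lone cKO library is assumed to vary as they do. Tex101 stood at 8617 and 8304 in control and at 7826 and 9265 in cKO, a change of 0.01 (SE 0.08; adjusted p = 1.00 by limma). Adam32 stood at 146 and 170.1 in control and at 162 and 378 in cKO (0.65, SE 0.36), and Clgn at 2803 and 3008 in control and at 2800.3 and 4102 in cKO (0.22, SE 0.16). Both overlapped and had their high value in the second cKO library. Calr3 changed by 0.01 (SE 0.18) and Adam1a by 0.05 (SE 0.36), both with overlapping libraries.

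The cKO effect at P16 was set against that at P14 in 1 model of the 8 first-kit libraries. No member was called, where 7.39% of genes were (2.90% higher, 4.49% lower), and 4616 passed at an unadjusted p under 0.05. The closest was Tex101, whose effect was lower by 0.41 at P16 (-0.41, SE 0.12; adjusted p = 0.0693 by limma). DESeq2 on the recovered reads called it (adjusted p = 0.0111). For Adam1b, Adam2, Adam3, Adam5, Adam18, Adam32 and Clgn the sign depended on which P14 cKO library was kept, while Tex101 and Calr3 were below 0 with either. Without the first, Adam3 differed by -1.33 and Adam5 by -0.43. Without the second, Adam5 differed by 0.72, Adam18 by 1.68 and Clgn by 0.48. Each of these fits left 1 cKO library at P14. With both, Adam5 differed by 0.16 (SE 0.38) and Adam3 by -0.58 (SE 0.51). The differences were 0.55 (SE 0.79) for Adam18, 0.22 (SE 0.20) for Clgn, -0.02 (SE 0.26) for Adam2, -0.11 (SE 0.41) for Adam32, -0.32 (SE 0.54) for Adam1b, -0.36 (SE 0.24) for Calr3 and 0.27 (SE 0.52) for Adam1a.

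Against Cre controls, 0 of 10 members were called at P16, where 9.07% of 19200 genes were called (4.30% higher, 4.77% lower), and all 10 overlapped, where 13.2% of genes were above and 16.9% below. Adam5 stood at 2807, 1646, 2411 and 928 across the 4 Cre control libraries and at 3841, 4104 and 2373 across the 3 cKO ones. Only the third cKO library, of the same kit as the Cre controls, fell within their range, and the change was 0.90 (SE 0.38; adjusted p = 0.129 by limma). Tex101 stood at 10972, 6534, 9523 and 7218 in Cre controls and at 6962, 8057 and 4848 in cKO, a change of -0.37 (SE 0.23; adjusted p = 0.271 by limma). The other changes were 0.99 (SE 0.61) for Adam3, 0.55 (SE 0.39) for Adam32, 0.50 (SE 0.53) for Adam18, 0.46 (SE 0.31) for Adam2, 0.33 (SE 0.62) for Adam1a, 0.07 (SE 0.23) for Clgn, -0.10 (SE 0.34) for Adam1b and -0.11 (SE 0.20) for Calr3. The Cre controls themselves spanned a wide range: the fourth had the lowest level of Adam1b, Adam2, Adam3, Adam5, Adam18, Adam32 and Clgn, and the lowest summed pachytene markers, 1304 CPM against 2406 CPM in the highest. Without the third cKO library Adam2 (0.72) and Adam5 (1.15) were called higher among 9427 genes, but kit and genotype then cannot be told apart. Without any 1 of the other 6 libraries 0 genes were called.

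Within the second kit, the third P16 cKO library was below every Cre control for 2 members, Tex101 and Clgn, and within their range for 8. Of all genes 30.0% were below and 24.0% above. Tex101 was 0.79 lower than the Cre control mean on the log2 scale (-0.79), in the same direction as in the first kit. For Clgn the difference was -0.38, but the library's 4498.6 lay next to the lowest Cre control, 4498.7, and in CPM it was above it (234 against 228). Adam5 (0.40), Adam3 (0.52) and Adam32 (0.25) were above the Cre mean, and Adam2 (-0.04) and Adam18 (0.00) near it. Adam1b was at -0.64, Adam1a at -0.92 and Calr3 at 0.02. Against Cre control library 1, the only P16 Cre control of the same run, 9 of 10 members were lower, by a median of -0.58, and so were 10 of 10 pachytene markers, by a median of -0.65. So were 6 of 8 general chaperones, 6 of 8 ADAM3 helpers and 3 of 3 germ cell markers. None of 5 spermatogonial or 6 Sertoli markers was lower, and 4 of 11 widely expressed ADAM genes were. The share of all genes lower than that library was not computed. That Cre control library held the highest level of 8 members among the 4. With 1 cKO library these differences have no replicate check.

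**Figure D3:**
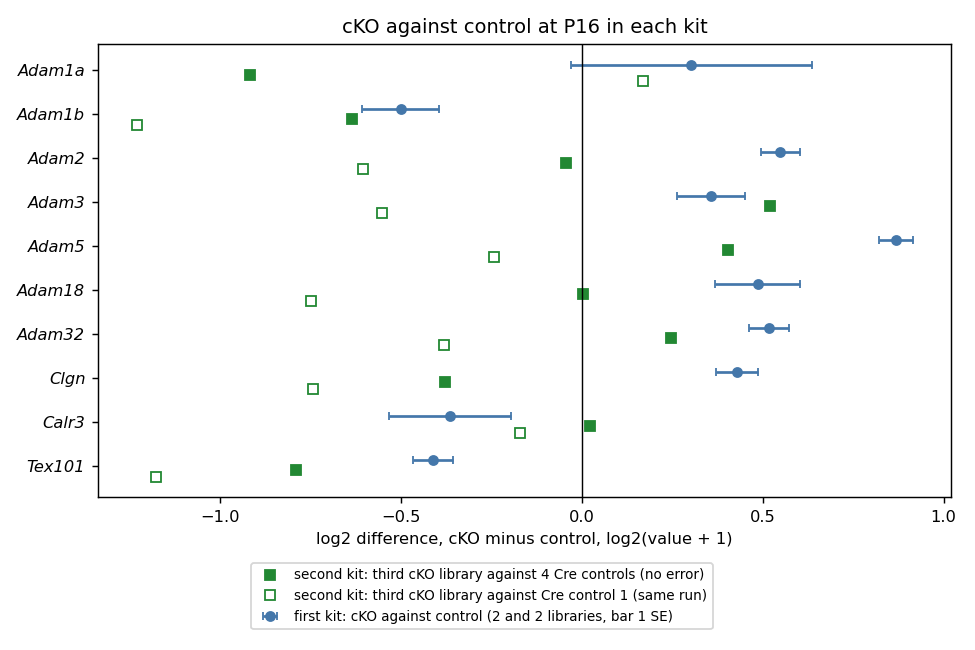
Log2 difference of cKO from control at P16 for each member. Circles are the first kit with bars of 1 SE, filled squares the third cKO library against the mean of 4 Cre controls, and open squares the same library against Cre control 1 of its run. Tex101 and Adam1b lie left of 0 by all 3 measures, while Adam2, Adam3, Adam5, Adam18, Adam32 and Clgn lie right of 0 in the first kit and left of 0 by the open squares.

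At P14 against Cre controls, 0 of 9 tested members were called in limma, as were 0% of genes, with 705 genes at an unadjusted p under 0.05 and 5 genes called by DESeq2. Adam18 did not pass the filter on low values. Calr3 alone had every cKO library above every Cre control, at 80.2, 85.5 and 74.1 against 65.7 and 70.2, where 11.7% of genes did so and 14.8% were below. The change of Calr3 was 0.23 (SE 0.22; adjusted p = 0.605 by limma). The third cKO library was below both Cre controls for Adam1a, Adam1b, Adam2, Clgn and Tex101, 5 of the 9 tested, where 33.3% of genes were and 26.9% were above. Adam2 stood at 358 and 362 in Cre controls and at 663, 1111 and 289 in cKO, so the 2 first-kit libraries were above and the second-kit library below. The other changes were 1.75 (SE 1.18) for Adam3, 1.26 (SE 0.85) for Adam5, 1.04 (SE 0.78) for Adam32, 0.73 (SE 0.55) for Adam2, 0.32 (SE 0.35) for Tex101, 0.26 (SE 0.42) for Clgn, 0.18 (SE 1.05) for Adam1b and -0.41 (SE 0.49) for Adam1a. Leaving out the third library gave 6 members called higher, with kit and genotype then confounded. Of all 17924 genes tested in that fit, 2435 were called higher and 3821 lower.

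The members' mean and the mean of the 10 pachytene markers, each standardised over the 8 libraries of a kit, both put every P14 library below every P16 library. Within a stage the orders differed: cKO P16 library 2 was the lowest P16 library of the first kit for the members (0.57) and the highest for the markers (0.96). The members' mean gives each member the same weight. By summed CPM of the members that library was the highest, at 1226 against 1018 to 1099 in the other first-kit P16 libraries. Among these it was highest for Adam2, Adam5 and Clgn, lowest for Adam1b and Calr3, and in between for the rest. In the first kit the second P14 cKO library stood between the stages, at -0.28 for the members and -0.39 for the markers. The other P14 libraries were at -0.72 or below for the members and all P16 libraries at 0.57 or above. In the second kit the third P16 cKO library was at 0.30 for the members and 0.61 for the markers, among the Cre controls, which ran from 0.29 to 0.88 for the members.

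**Figure D4:**
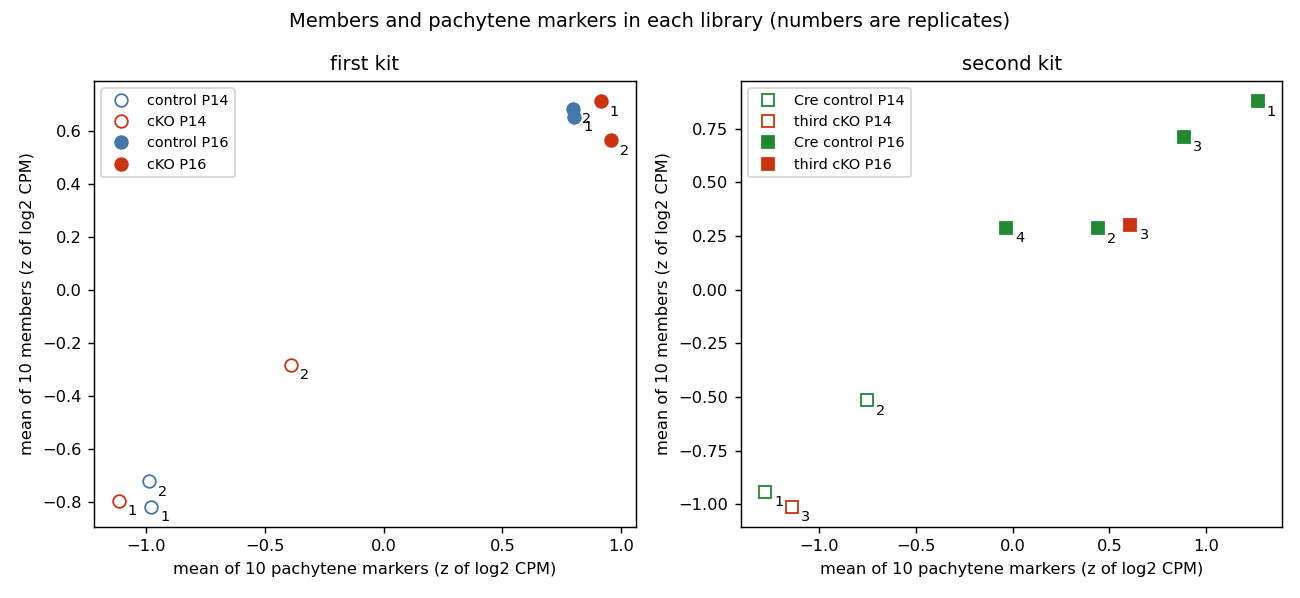
Mean standardised log2 CPM of the 10 members (vertical) against that of 10 pachytene markers (horizontal) for the 8 libraries of each kit, with replicate numbers beside the points, open symbols for P14 and filled for P16. The second P14 cKO library (-0.28 for the members) lies between the stages in the first kit.

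The genes whose log2 CPM was most like the members' mean, by Pearson's r over the 8 libraries of a kit, were Mroh2a, Aqp9, Slx4, Abca14 and Ccdc38 in the first kit, each with an r above 0.99 among 12270 genes ranked. In the second kit they were Tdrd5, Ttc21b, Als2cr12, Dnah7c and BC049730, among 12134 genes. BC049730 is the coding gene next to Tex101. The libraries of a kit fall into 2 stages, which sets such values high for any gene that differs between the stages, and they are given as a description only.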

How the data were processed

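RNA-seq of whole testis was measured in 16 libraries. The authors deposited 4 tables of normalized counts, 1 per stage and control type, and each value is a signal, namely the reads of a gene after division by the library's size factor. Trim Galore, STAR, HTSeq, DESeq2 and build GRCm39 are named in the submitters' processing notes. The column names per the file headers show STAR gene counts of trimmed first mates. Tool versions, annotation and strand setting are not given in the sources used here. In all 20 columns 100% of nonzero values divided by the worth of a single read gave whole numbers (tolerance 0.05), so whole reads were recovered. STAR's summary rows, 53.4% to 63.0% of all reads, were left out.

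Each stage's cKO libraries 1 and 2 stand in both its tables, so the comparisons with control and Cre control share them. Gene names came from GENCODE M21, which matched 52081 of 55414 identifiers. Comparisons within a table used limma 3.58.1 (R 4.3.3, variance trend) on log2(value + 1), keeping genes that reached 10 in 2 or more libraries. Comparisons of stages used limma on log2 CPM (TMM from edgeR 4.0.16, prior count 1) of the recovered reads, keeping genes that reached 10 reads in 2 or more libraries. All libraries of a kit, cKO included, stood in 1 model of group means. Tests were two-sided, with Benjamini-Hochberg adjustment over all genes tested and calls at an adjusted p under 0.05. edgeR and DESeq2 1.42.0 on the recovered reads, other pseudocounts, filters and scalings, a replicate block, kit as a covariate and leaving out each library were tried as alternatives. The fits were tested on simulated counts with changes larger than the members' cKO changes at P16 against control, in well-read genes and without kit or run effects. That check does not cover small changes, low counts or mixed kits.

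The rule names all members and Ythdc2 in every comparison. From each other list the named genes are up to 4 called at P16 against control with the largest change, or, where fewer than 2 were called, the 2 of highest mean; genes outside that rule were chosen after their values were seen. The members and lists were chosen with earlier results of these data known.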

Additional observations from a re-analysis of the deposited data

Results flagged for a closer look

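The P16 cKO effect on Clgn pointed in opposite directions in the 2 kits. In the first kit both cKO libraries were above both controls (0.43, SE 0.06), and in the second kit the third cKO library was below every Cre control, by -0.38 on the log2 scale from their mean. The margin was small: its deposited value was 4498.6 against 4498.7 in the lowest Cre control, and on the CPM scale it was above that library (234 against 228 CPM). The difference between the kits was not tested, and the second kit has 1 cKO library.

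Ythdc2 itself was reduced more at P16 than at P14 in the first kit: the cKO effect at P16 minus that at P14 was -0.72 (SE 0.11; adjusted p = 0.00822 by limma). A test for a library far from the other 3, run on 11 sets of 4 values, flagged none. With 4 values such a test can miss a library that lies apart, so no conclusion is drawn from it. In Cre control P16, Adam1a had 4 reads in library 1 and 13, 16 and 16 in the others.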

How the results depend on the processing

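With 2 libraries in most groups the variance estimate decides many calls. Of the changes of single genes under the alternatives, 1065 kept their sign and side of the threshold, 63 were not called under either setting but changed sign, 44 lost the call, 31 gained one and 1 turned with a call: the stage difference of Adam5 ran from -0.43 without the first P14 cKO library to 0.72 without the second. For P16 cKO against control, 6939 genes (6 members higher, 2 lower) became 1806 (3 and 1) without the variance trend and 2701 (0 and 1) with both kits and kit as a covariate, and 4591 to 7045 (5 to 6 higher, 2 lower) without 1 library. For P14 cKO against control, 1 gene became 0 with no filter, 0 without the trend, 6 with DESeq2 and 0 to 11 (0 to 2 members higher) without 1 library. For P16 against Cre controls, 1741 genes became 3277 with a pseudocount of 10, 917 with no filter, 3094 with quantile normalization, 32 without the trend, 4188 with DESeq2, 1 with kit as a covariate and 0 to 9427 (0 to 2 members higher) without 1 library. The share of higher calls there moved from 47.4% to 57.0% with TMM, 58.0% with quantile normalization and 66.1% with edgeR, and down to 39.2% with a pseudocount of 10 and 40.8% without the third cKO library; quantile normalization moved the median of all genes to 0.10. For P14 against Cre controls, 0 genes became 5 with DESeq2 and 0 to 6256 (0 to 6 members higher) without 1 library. For the stage difference of the cKO effect, 1373 genes became 727 with no filter, 135 without the trend and 284 to 3199 (0 to 3 members higher, 0 to 6 lower) without 1 library, and DESeq2 called 1 member lower. From P14 to P16, 3714 genes in control became 2166 without the trend and 1640 to 4737 (7 to 8 members higher) without 1 library. In Cre controls, 2237 became 49 with no filter (0 members higher), 879 without the trend, 947 in 1 sequencing run only and 580 to 2781 (6 to 8 members higher) without 1 library. The cause of these shifts was not tested.

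Replicate numbers were not shown to pair the libraries: the deviations of same-numbered libraries correlated at 0.08 (P16) and 0.20 (P14) between cKO and control, and at -0.23 to 0.30 against Cre controls. With a replicate block, 5 genes were called at P14 against control, 0 at P16 against Cre controls and 6966 (6 members higher) at P14 against Cre controls, where the block takes out the third cKO library, and 2228 (1 member lower, Tex101) for the stage difference of the effect. At P16 against control the block gave 8200 calls. Among the members and Ythdc2, it changed no other call than those of these members and of Ythdc2 against Cre controls (adjusted p = 0.110 at P16 and 4.83e-06 at P14, limma).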
